A study of Arabidopsis thaliana with 6 samples.

Results

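The transcripts described are those whose signal was at least 1.7-fold higher in dark-grown seedlings of the pif1-2 mutant of Arabidopsis thaliana than in wild type. A probe set is the group of probes that measures 1 transcript on the array, or in some cases several. It was taken when its mean signal was at least 100 over the 3 pif1-2 arrays. That mean also had to be at least 1.7 times the mean of the 3 wild-type arrays. Every pif1-2 value had to lie above every wild-type value. Of 22746 probe sets 64 met these limits. PPDK, MCCB and IAA34 were among them and were left out by the rule, which also leaves out AT4G33150, MCCA, expansins and xyloglucan endotransglucosylases, as far as a probe set has a gene name. The remaining 61 probe sets, chosen by their signals on these 6 arrays, were the members, of which 42 carry the name of 1 gene in the platform annotation and 19 carry none and could not be screened for the genes left out. The same 6 arrays chose the members and give their values, so the values below are descriptions, and a call of a member in the fit across all probe sets is no evidence apart from the choice.

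The groups were pif1-2 (3 arrays), named by the submitters as an insertion mutant with very little PIF1 mRNA, and wild type of the accession Col-0, marked Wt in the plots (3 arrays). Both were whole seedlings, plated on MS medium, kept in the cold for 4 days, lit for 1 hour to start germination, and grown at 21 °C in darkness for 4 days. Per the labels, the etiolated wild type stands about 2 mm taller than pif1-2, and the labels call the replicates biological without saying what separated them. Since whole seedlings were measured, a change in the number of cells of a type and a change in RNA per cell cannot be told apart.

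PIF1 belongs to the basic helix-loop-helix transcription factors. It acts in darkness and is degraded once phytochrome is activated by light. It is known for holding back germination and chlorophyll synthesis in the dark, and it binds G-box elements, at some genes as an activator and at others as a repressor. An etiolated seedling lives on stored oil and protein, lengthens its hypocotyl under a closed hook and keeps its plastids as etioplasts.

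The labels conflict on the mutant. The sample titles give pif1-2, whereas the genotype and phenotype fields number the allele differently on each of the 6 samples, and the locus printed in the series title is not that of PIF1. Groups were taken from the sample titles, and since no named probe set belonged to PIF1 or to the printed locus (0 probe sets), the genotype was not checked on the arrays. PORB, a protochlorophyllide oxidoreductase of etioplasts, had a mean signal of 6715 ± 2147 in pif1-2 and 9148 ± 1250 in wild type (SD, n = 3 each), a ratio of 0.734. Its groups overlapped, pif1-2 replicate 2 at 9056 lying above wild-type replicates 1 and 3 at 8584 and 8278. Of 4 root markers 3 had a lower mean in pif1-2. PRX39 had 304 ± 106 in pif1-2 and 475 ± 73.8 in wild type (SD, n = 3 each), a ratio of 0.640 without overlap, while AT1G30870, EXPA18 and EXPA7 had ratios of 0.737, 0.875 and 1.04, and limma called none of these 5 markers. The part of these marker levels in the members' values was not tested. None of the fixed epidermis and flower markers had a named probe set. On the principal components of all 17695 probe sets with a mean scaled signal of at least 50, pif1-2 replicate 3 was far from the rest on the first, at 47.9 against -13.2 to -5.23 for the others. On the third, pif1-2 replicate 2 was far from the rest, at 42.6 against -17.8 to -1.97. The deposited medians were 184 to 199 on the 6 arrays.

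Most of these transcripts were dim. Their mean pif1-2 signal ran from 100.1 to 9731 with a median of 156, and 40 of the 61 lay under 200, 16 between 200 and 500, and 5 above 500. Their mean wild-type signal had a median of 77.2, and 23 had at least 1 wild-type value under 50. The ratio of means, pif1-2 over wild type, had a median of 1.86 and a highest value of 4.46. It was at least 2 in 21 probe sets, at least 3 in 5 and under 1.8 in 25. On the log2(scaled signal + 16) scale, where the added 16 shrinks the change of weak signals, their median difference was 0.81, against 0.00095 over all 17695 probe sets.

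**Figure D1:**
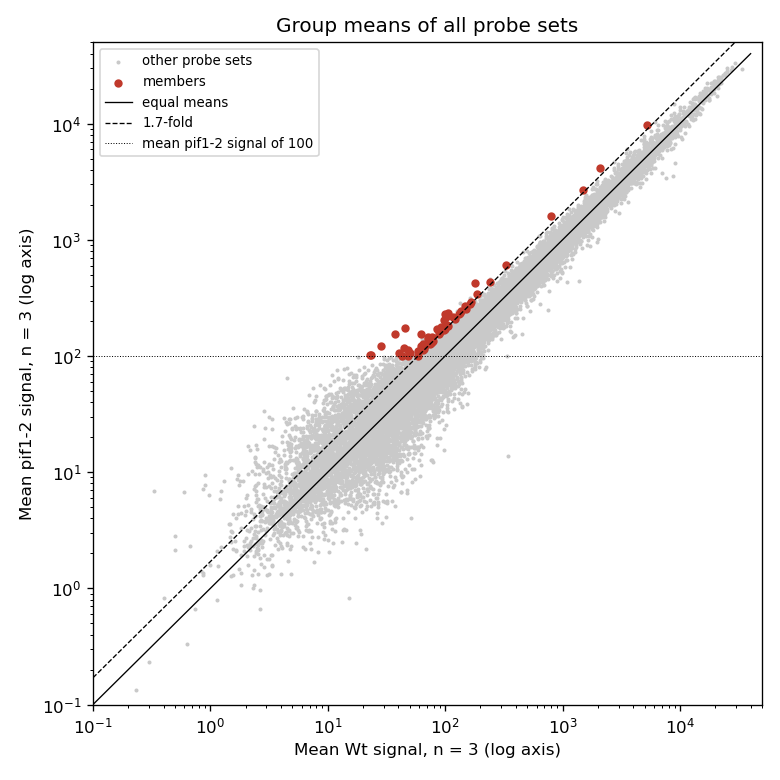
Mean signal of each probe set in pif1-2 (vertical, log axis) against its mean in wild type (horizontal, log axis), n = 3 arrays each. The 61 members (red) lie on or above the dashed 1.7-fold line and above the dotted line at a mean pif1-2 signal of 100, and 40 of them lie under 200.

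The limits are met by few probe sets and more often by dim ones. Among the 14770 probe sets with a mean pif1-2 signal of at least 100, 64 or 0.433% met all limits, and 1028 or 6.96% had all pif1-2 values above all wild-type values. The same limits turned round, for probe sets lower in pif1-2 with a mean wild-type signal of at least 100, were met by 134 of 14736, or 0.909%. By mean pif1-2 signal, 1.1% of the probe sets from 100 to 200 met the limits for a higher signal, 0.346% from 200 to 500, 0.0356% from 500 to 1000, and 0.175% at 1000 or more. The median coefficient of variation between the pif1-2 arrays was 20.7% from 100 to 200 and 12.5% at 1000 or more. In the fit across all 17695 probe sets, limma called 0 higher in pif1-2 at an adjusted p under 0.05 (0%) and 2 lower (0.0113%), with none of the 61 among these calls, and since the same values chose the 61 nothing is read from that. At an unadjusted p under 0.05, limma had 585 probe sets higher, or 3.31%, and 772 lower, or 4.36%.

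**Figure D2:**
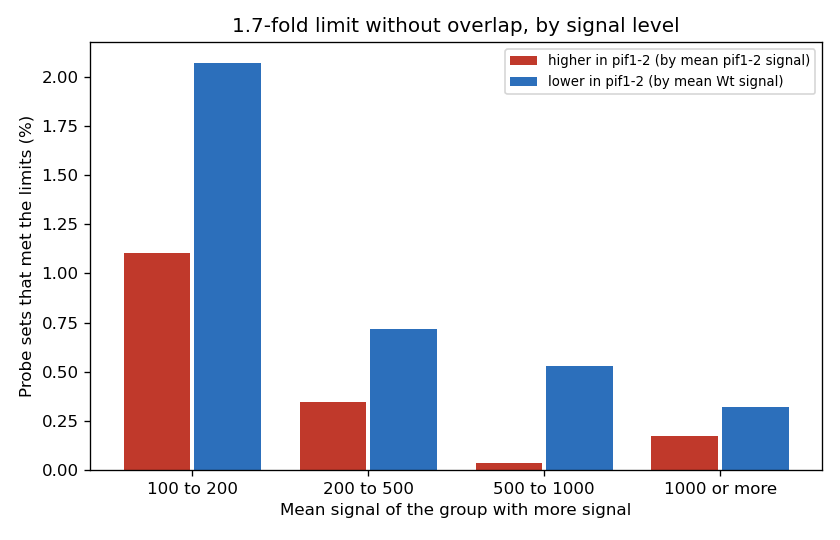
Percentage of probe sets that met the 1.7-fold limit without overlap, higher in pif1-2 (red, by mean pif1-2 signal) or lower in pif1-2 (blue, by mean wild-type signal), by signal level. The red bars fall from 1.1% at signals of 100 to 200 to 0.0356% at 500 to 1000 and are 0.175% at 1000 or more, and each stands below its blue bar.

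Few of these transcripts were abundant, and of the 4 with a mean pif1-2 signal of at least 1000 only AT2G41190 has a gene name. AT2G41190 encodes a member of the transmembrane amino acid transporter family. Its signals were 2324, 2822 and 2954 on the pif1-2 arrays, against 1665, 1332 and 1524 on the wild-type arrays. The means were 2699.8 ± 332 in pif1-2 and 1507 ± 167 in wild type (SD, n = 3 each), a ratio of 1.79, which was 1.69 without wild-type replicate 2 and stayed between that and 1.92 without any 1 array. The lowest pif1-2 array, replicate 1, lay 1.40 times as high as the highest wild-type array. The brightest of all, the unnamed probe set 267035_at, had 7562, 10391 and 11242 in pif1-2, against 5748, 4899 and 5096 in wild type. Probe set 264777_at had 3356, 4034 and 5124 in pif1-2 and 2276, 1972 and 1956 in wild type, a ratio of 2.02. Probe set 256601_s_at had 1193, 1837 and 1736 in pif1-2 and 984, 828 and 574 in wild type, a ratio of 2.00. Its suffix, _s_at, marks probes shared by several transcripts, so its signal is uncertain as a measure of 1 transcript. In each of these 4 the lowest pif1-2 value was that of replicate 1, while both other pif1-2 arrays were further from wild type. Each of the 3 unnamed probe sets kept a ratio of at least 1.7 when any 1 array was left out.

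The next brightest named transcript was that of AT5G59170, an extensin-like proline-rich protein, a class of structural cell wall proteins. It had 395, 791 and 644 in pif1-2, against 351, 339 and 307 in wild type, a ratio of 1.84. The wild-type arrays lay close together, whereas pif1-2 replicate 1 lay just above them and replicates 2 and 3 far above. Without pif1-2 replicate 2 the ratio was 1.56. The other genes of secreted or surface proteins among the members were dimmer. AT3G22050 encodes a cysteine-rich repeat secretory protein and had 93.5, 161 and 51.2 in pif1-2, against 22.7, 38.5 and 8.50 in wild type. Its ratio of 4.39 was taken over a low wild-type signal, and it was 3.11 without pif1-2 replicate 2 and 6.53 without wild-type replicate 2. AT3G02670, a glycine-rich protein, had 129, 229.8 and 251 in pif1-2, against 74.7, 128 and 88.4 in wild type. Its lowest pif1-2 value, on replicate 1, was only 1.01 times the highest wild-type value, on replicate 2.

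**Figure D3:**
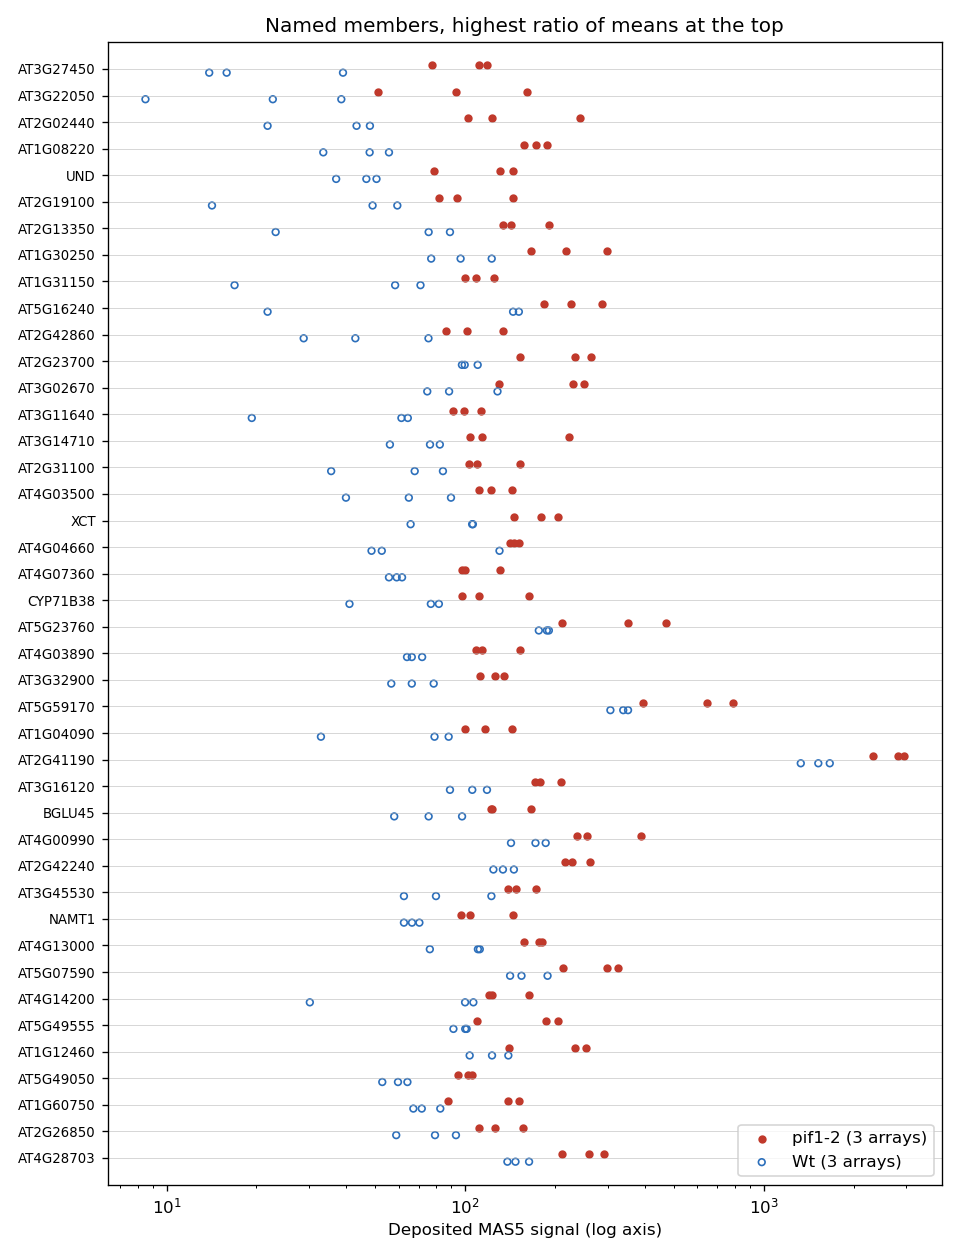
Deposited signal of the 42 members with a gene name on each array (horizontal, log axis), pif1-2 as filled red points above wild type as open blue points, ordered by the ratio of means. AT2G41190 lies far to the right of all others, at 2324 to 2954 in pif1-2 and 1332 to 1665 in wild type, and most others lie between 100 and 300 in pif1-2.

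Among the enzymes, AT1G08220 had the widest separation between the groups of all 61 probe sets. Its product resembles ATP10, a factor known from yeast for assembling mitochondrial ATP synthase. It had 157, 173 and 188 in pif1-2, against 55.6, 47.9 and 33.5 in wild type, means of 173 ± 15.3 in pif1-2 and 45.7 ± 11.2 in wild type (SD, n = 3 each) and a ratio of 3.78. The lowest pif1-2 value was 2.83 times the highest wild-type value, and the ratio lay between 3.34 and 4.24 without any 1 array. UND, an aspartic protease known from the tapetum of anthers, had 131, 145 and 78.9 in pif1-2, against 37.0, 46.7 and 50.5 in wild type. Replicate 3 was the low one in pif1-2 and the high one in wild type, and the ratio of 2.64 lay between 2.35 and 3.08 without any 1 array. AT5G16240, of the acyl-ACP desaturase family, whose members place double bonds in plastid-made fatty acids, had 184, 227 and 288 in pif1-2, against 145, 151 and 21.8 in wild type. Wild-type replicate 3 was far below both other wild-type arrays, and without it the ratio was 1.57 instead of 2.20.

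The other 7 enzymes had ratios from 1.7 to 1.95, and all had fewer than 300 signal units on every array. AT2G31100, a lipase-like hydrolase, had 103, 153 and 109.5 in pif1-2, against 67.8, 84.3 and 35.6 in wild type. CYP71B38, a cytochrome P450, had 97.9, 164 and 111 in pif1-2, against 41.0, 81.7 and 76.8 in wild type. In both, pif1-2 replicate 2 was the highest array of all. BGLU45, a beta-glucosidase that acts on monolignol glucosides, the stored forms of lignin precursors, had 123, 122 and 167 in pif1-2, against 57.9, 75.5 and 97.7 in wild type. NAMT1, a nicotinate methyltransferase, had 144, 96.9 and 104 in pif1-2, against 66.4, 70.3 and 62.4 in wild type. For NAMT1 the 3 wild-type arrays lay within a narrow band, and pif1-2 replicate 1 stood above both other pif1-2 arrays. AT5G49555, an FAD/NAD(P)-binding oxidoreductase, had 109.5, 187 and 205 in pif1-2, against 101, 100.1 and 91.4 in wild type. AT1G60750, of the aldo/keto reductase family, had 87.6, 152 and 139 in pif1-2, against 82.6, 71.6 and 67.1 in wild type. In both of these, pif1-2 replicate 1 lay barely above wild type and replicates 2 and 3 clearly above. AT4G28703, a protein with a cupin fold, had 212, 261 and 292 in pif1-2, against 164, 139 and 148 in wild type. Each of these 7 fell under a ratio of 1.7 without 1 array, with lowest values from 1.51 (NAMT1 without pif1-2 replicate 1) to 1.60 (AT2G31100 without wild-type replicate 3).

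AT5G23760, a protein with a heavy-metal-associated domain of the kind found in copper chaperones, was the other member with a likely role in transport. It had 212, 352 and 470.1 in pif1-2, against 191, 177 and 188 in wild type. The wild-type values were nearly equal and the pif1-2 values spread widely, from just above wild type on replicate 1 to the highest on replicate 3. Without pif1-2 replicate 3 the ratio was 1.52 instead of 1.86.

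Genes of regulatory proteins had ratios from 1.7 to 2.05. XCT (XAP5 CIRCADIAN TIMEKEEPER), a nuclear protein with roles in the circadian clock and in light signalling, had 146, 205 and 179.9 in pif1-2, against 106, 106 and 65.7 in wild type. The means were 177 ± 29.5 in pif1-2 and 92.5 ± 23.2 in wild type (SD, n = 3 each). All pif1-2 arrays were well above wild type, in which replicate 3 was the lowest, and the ratio of 1.91 was 1.67 without that array. AT4G00990, a JmjC domain protein of the histone demethylase class, had 256, 237 and 387 in pif1-2, against 172, 186 and 143 in wild type. Its ratio of 1.76 was 1.48 without pif1-2 replicate 3, the highest array. AT2G42240, an RNA-binding protein with an RNA recognition motif, had 217, 262 and 229 in pif1-2, against 124, 134 and 146 in wild type. Both groups were tight, with a gap of 1.49 times between the highest wild-type and the lowest pif1-2 array. The ratio of AT2G42240, 1.75, was 1.65 without pif1-2 replicate 2. AT5G07590, a WD40 repeat protein, had 213, 325 and 298 in pif1-2, against 155, 189 and 142 in wild type. AT4G14200, a pentatricopeptide repeat protein, a class that acts on organelle RNA, had 121, 164 and 123 in pif1-2, against 107, 100 and 30.2 in wild type. Its ratio of 1.72 rested on a single low wild-type array, replicate 3, and was 1.32 without it.

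A pair of F-box genes, whose class selects proteins for ubiquitination, were also members. AT3G14710 had 114, 223 and 104 in pif1-2, against 82.3, 76.3 and 56.0 in wild type, and AT2G26850 had 126, 111 and 157 in pif1-2, against 79.3, 58.8 and 93.2 in wild type. For AT3G14710 pif1-2 replicate 2 was about double the other pif1-2 arrays, and the ratio of 2.05 was 1.52 without it. The 2 kinases were similar in ratio. AT1G12460, a leucine-rich repeat receptor-like kinase, had 140.3, 233 and 254 in pif1-2, against 104, 139.6 and 123 in wild type, and its groups were separated by a factor of only 1.01. AT4G13000, an AGC family kinase, had 157, 181 and 177 in pif1-2, against 112, 110.4 and 76.2 in wild type, with a tighter pif1-2 group. The ratio of AT4G13000, 1.73, was 1.54 without wild-type replicate 3.

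The remaining members with a recognisable domain were AT2G13350 (a lipid-binding C2 domain), AT4G03500 (ankyrin repeats), AT3G16120 (a dynein light chain) and AT3G45530 (a C1 domain). AT2G13350 had 143, 134 and 191 in pif1-2, against 89.0, 75.5 and 23.2 in wild type, and its ratio of 2.49 was 1.89 without wild-type replicate 3, the low one. AT4G03500 had 122, 143 and 112 in pif1-2, against 64.8, 39.9 and 89.7 in wild type. AT3G16120 had 178, 209 and 171 in pif1-2, against 118, 106 and 89.0 in wild type. The arrays of each group lay close together, and the lowest pif1-2 value was 1.44 times the highest wild-type value. The ratio of AT3G16120, 1.78, was 1.66 without wild-type replicate 3. AT3G45530 had 149, 173 and 139 in pif1-2, against 62.4, 123 and 79.9 in wild type, where replicate 2 was close to the pif1-2 values.

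For 8 protein-coding members no role is given here. The highest ratio among them was that of AT2G02440, with 103, 242 and 123 in pif1-2, against 43.3, 48.0 and 21.8 in wild type. All its pif1-2 arrays were more than double every wild-type array, with replicate 2 far above both others, and the ratio of 4.13 was 2.99 without that array. AT1G30250 had 218, 299.9 and 166 in pif1-2, against 77.0, 123 and 96.6 in wild type, and AT2G23700 had 153, 233 and 263 in pif1-2, against 97.6, 110.2 and 99.7 in wild type. Both kept a ratio of at least 1.7 without any 1 array, the lowest being 1.95 for AT1G30250 and 1.88 for AT2G23700. AT1G31150 had 100.1, 109 and 125 in pif1-2, against 58.3, 16.9 and 70.9 in wild type, where replicate 2 was far below the others. AT2G42860 had 101, 134 and 86.6 in pif1-2, against 28.8, 75.4 and 42.9 in wild type. AT3G11640 had 90.8, 113 and 98.9 in pif1-2, against 61.2, 64.3 and 19.3 in wild type, with wild-type replicate 3 far below the others. AT1G04090 had 116, 99.6 and 144 in pif1-2, against 79.0, 32.9 and 88.1 in wild type, where replicate 2 was the low array, and AT5G49050 had 102, 106 and 94.5 in pif1-2, against 64.1, 52.8 and 59.6 in wild type. The ratios of AT3G11640, AT1G04090 and AT5G49050 dropped under 1.7 without 1 array, to 1.61, 1.43 and 1.63.

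A feature the limits did not use was the type that RefSeq gives a locus, and 6 of the 42 named members are pseudogenes there. That is 14.3%, against 107 of the 8027 probe sets matched to a RefSeq type and with a mean pif1-2 signal of at least 100, or 1.33%. Pseudogene probe sets are mostly dim, and between signals of 100 and 200, where all 6 lay, the shares were 6 of 30 named members (20%) and 90 of 2189 typed probe sets (4.11%). Of the 74 typed probe sets that met the same limits turned round, being lower in pif1-2, 1 was a pseudogene (1.35%). Among those of the 74 with a mean wild-type signal under 200 the share was 1 of 37 (2.70%). These shares are descriptions without a test.

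The pseudogene with the highest ratio was AT3G27450, with 77.3, 119 and 111 in pif1-2, against 39.0, 15.9 and 13.9 in wild type. Its ratio of 4.46 was the highest of all 61, but it was taken over a mean wild-type signal of 22.9, the lowest of the 61. The ratio moved to 6.87 when wild-type replicate 1 was left out and to 3.73 when replicate 3 was. On the log2(scaled signal + 16) scale its difference was 1.65, against 1.73 for the unnamed probe set 260145_at. AT2G19100 had 94.3, 81.9 and 144 in pif1-2, against 14.2, 49.0 and 59.3 in wild type. AT4G04660 had 146, 141 and 152 in pif1-2, against 48.6, 130.4 and 52.6 in wild type, and wild-type replicate 2 was close to the pif1-2 arrays. Its ratio of 1.90 was 2.89 without that array and 1.60 without wild-type replicate 1. The remaining 3 had closer wild-type values. AT4G07360 had 131, 100 and 98.0 in pif1-2, against 55.6, 59.0 and 61.5 in wild type. AT4G03890 had 109, 153 and 114 in pif1-2, against 71.8, 63.9 and 66.3 in wild type. AT3G32900 had 112, 126 and 135 in pif1-2, against 66.3, 56.6 and 78.5 in wild type, and it kept a ratio of at least 1.7 without any 1 array, the lowest being 1.72. The probe sets of AT4G07360 and AT3G32900 end in _x_at, a suffix for probes that can also bind other sequences, so their signals are uncertain as measures of those loci alone. Only 0.554% of all probe sets carry that suffix.

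Of the 19 unnamed probe sets, 3 were described above as abundant. Among the other 16, 260145_at had 142, 107 and 119 in pif1-2, against 11.2, 25.0 and 49.7 in wild type, a ratio of 4.29 that became 6.79 when wild-type replicate 3 was left out and 3.29 when replicate 1 was. Probe set 247162_at had 302, 451 and 519 in pif1-2, against 88.1, 188 and 264 in wild type. In both groups of 247162_at replicate 1 was lowest and replicate 3 highest, so that the arrays of 1 number ran in parallel. Probe set 248377_at had 91.1, 108 and 101 in pif1-2, against 8.0, 81.3 and 38.7 in wild type, where the 3 arrays differed by more than the group means did. Its ratio of 2.35 became 4.29 when wild-type replicate 2 was left out and 1.67 when replicate 1 was. The others had ratios from 1.71 to 2.14.

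Across the arrays, the members were not raised evenly. Relative to the mean of the 3 wild-type arrays, the median log2 ratio over the 61 was 0.72 on pif1-2 replicate 1, 1.00 on replicate 2 and 1.01 on replicate 3. On the wild-type arrays it was 0.074, 0.058 and -0.12. Replicate 1 was the lowest of the pif1-2 arrays in 35 of the 61, or 57.4%, against 29.4% of all probe sets with a mean pif1-2 signal of at least 100. It was the highest in 5 of the 61, while replicates 2 and 3 were the highest in 28 each. Wild-type replicate 3 was the lowest wild-type array in 28 of the 61, or 45.9%, against 32.1% of those probe sets. The limits used these same values, so the shares over all probe sets are not a like comparison, and nothing is read from them. The median coefficient of variation over the 61 was 21.1% between pif1-2 arrays and 25.3% between wild-type arrays.

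**Figure D4:**
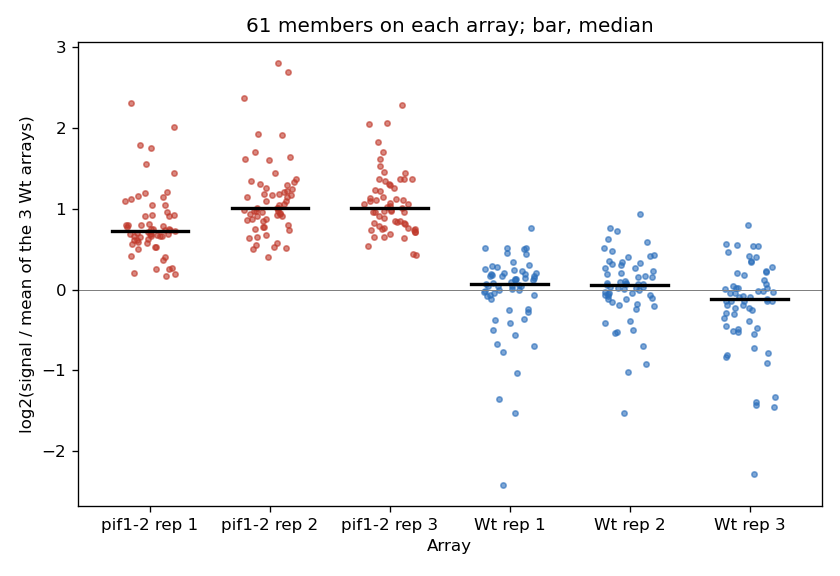
log2 of the signal of each of the 61 members on each array over its mean on the 3 wild-type arrays; black bars are medians over the 61. The pif1-2 medians are 0.72, 1.00 and 1.01 and the wild-type medians 0.074, 0.058 and -0.12, and the choice of the members fixes the gap between the groups.

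Membership depended on single arrays for most of the 61. A ratio of at least 1.7 was kept without any 1 array by 20, and a ratio of at least 1.5 by 52, with 1.32 as the lowest value reached. Without pif1-2 replicate 2, far from the rest on the third principal component, 36 of the 61 still met all limits, and without pif1-2 replicate 3, far from the rest on the first, 42 did. Across the 9 other settings tried (each array left out, median centring, quantile normalization and a ratio of medians), 16 of the 61 met the limits every time. Of those, 9 have gene names: AT2G02440, AT1G08220, UND, AT2G13350, AT1G30250, AT1G31150, AT2G23700, AT3G02670 and AT3G32900.

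The lowest of the 61 and the probe sets just outside the fold limit differed little. Just inside were AT4G28703 at 1.7, AT2G26850 at 1.703, AT1G60750 and 258497_at, both at 1.707, and 244901_at at 1.712. Just outside were 264524_at at 1.698, 257801_at at 1.698, 246072_at and 262506_at, both at 1.689, and AT3G46480 at 1.686, the last with 137, 128 and 130.2 in pif1-2, against 79.0, 55.3 and 100.1 in wild type. Probe set 264524_at was brighter than any of the 61, with 8616, 9854 and 12668 in pif1-2, against 7614, 5634 and 5087 in wild type. Of the 3 genes that met the limits and were left out, IAA34, of the Aux/IAA family of auxin response repressors, had 279.6, 342 and 319 in pif1-2, against 136, 165 and 184 in wild type.

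In the genome the named members were spread over all 5 chromosomes, with 7 on chromosome 1, 10 on 2, 9 on 3, 9 on 4 and 7 on 5. The closest pair in the RefSeq order of genes was UND and AT4G13000, 10 genes apart, and no other pair was closer than 67 genes. For 24 genes directly beside a member a named probe set with a mean signal of at least 50 was at hand. Of these 24 neighbours 7 had a ratio above 1, and their median ratio was 0.926, against 1.00 over all probe sets of that level. Their lowest ratio was 0.678, that of NRPB7 beside AT5G59170, and the highest was 1.37, that of AT1G08230 beside AT1G08220. None of the 24 was itself a member.

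The fixed lists of seedling pathways, cell type markers and reference genes held 126 genes, of which 26 had a named probe set and 23 were tested. None of the 126 was among the named members, and limma called 0 of the 23 in either direction. Before adjustment limma had 5 of the 23 higher in pif1-2 at a p under 0.05, against 3.31% of all probe sets. It had 2 lower, the markers PORB and PRX39, against 4.36% of all probe sets. The lists were chosen with earlier results of these data known, so nothing is read from these counts or from the medians below. Of the genes of amino acid breakdown, named here beside the amino acid transporter AT2G41190, 6 of 14 were tested, and all 6 were positive, with a median log2 difference of 0.38 against 0.00095 over all probe sets. The largest ratio among the 6 was 1.40, that of MGL, which splits methionine, with mean signals of 5784 ± 995 in pif1-2 and 4130 ± 1459 in wild type (SD, n = 3 each). The MGL groups overlapped, wild-type replicate 1 at 5749 lying above pif1-2 replicates 1 and 2 at 5091 and 5337. IVD, ETFQO and HML1 overlapped as well, while D2HGDH and ALDH6B2 did not. For D2HGDH the gap was narrow, from 510.9 on wild-type replicate 1 to 514.4 on pif1-2 replicate 3. Of all probe sets with a mean pif1-2 signal of at least 100, 6.96% had all pif1-2 values above all wild-type values. The lowest ratios of the 6 were those of HML1 and D2HGDH, 1.02 and 1.14. ALDH6B2, of valine breakdown, had 7000.3 ± 584 in pif1-2 and 5145 ± 450 in wild type, a ratio of 1.36. MCCB, of leucine breakdown, is not on the fixed list; it met the limits and was left out by the rule, with 6569, 5149 and 6352 in pif1-2, against 5118, 2859.9 and 2566 in wild type, a ratio of 1.71. For the dark and sugar starvation list 3 of 22 genes were tested, with a median of 0.20. AKINBETA1, a subunit of the energy-sensing kinase SnRK1, had a ratio of 1.35, and SEN5, a gene of senescence and darkness, a ratio of 1.15. BZIP53 of the same list went the other way, at a ratio of 0.944. The groups of AKINBETA1 and BZIP53 overlapped, while those of SEN5 did not. On the list for beta-oxidation and the glyoxylate cycle, ICL, AIM1 and SDP1 were tested, at ratios of 1.29, 1.07 and 1.31. The groups of ICL and AIM1 overlapped, while those of SDP1 did not. For ICL, wild-type replicate 1 at 12448.8 lay above every pif1-2 array. The 3 auxin genes tested had a median of 0.19 and both reference genes tested one of -0.090. Among the auxin genes, GH3.3 and GH3.5 had ratios of 1.18 and 1.13, and IAA29 went the other way, at 0.958. The groups of GH3.5 and IAA29 overlapped, while those of GH3.3 did not. None of the 26 list genes with a named probe set met the limits, the lists holding none of PPDK, MCCB and IAA34.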

How the data were processed

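Total RNA of whole dark-grown seedlings (20 µg per sample) was labelled with biotin and hybridised to 6 Affymetrix ATH1 arrays, a 1-colour platform, per the labels' protocols. The values deposited by the authors are a linear intensity for each probe set; MAS5 is named for them, per the submitters' processing notes. Version, settings and build: not given in the sources used here. Every deposited array has a 2% trimmed mean of about 500, so arrays had been scaled; detection calls were not used here. Replicates varied more at dim signals, with a median coefficient of variation of 20.7% between pif1-2 arrays at signals from 100 to 200 and 12.5% at 1000 or more. Arrays give no read depth, and their number limits the precision.

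The limits were applied to the deposited signal, 64 of 22810 probe sets being left out as controls. The members and lists were chosen with earlier results of these data known. For the fit across all probe sets, arrays were rescaled to a 2% trimmed mean of 500 without controls, 5051 probe sets with a mean under 50 were left out, and log2(signal + 16) of 17695 was compared with limma 3.58.1 in R 4.3.3 (eBayes with trend, two-sided, Benjamini-Hochberg, threshold 0.05). Its p-values cover the spread between these 6 samples only, which may be technical.

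The platform annotation gave 1 gene for 13513 probe sets, several for 503 and none for 8730; 13436 matched RefSeq genes of TAIR10.1, used for names, locus types and gene order. Domains and roles are textbook background. By the rule for named genes, the 30 named members with the highest ratio, those with a described role and the edge of the fold limit were named; AT5G49050, the neighbours, the 3 abundant and 3 further unnamed probe sets, and the list genes given with values were chosen after their values were seen. Promoter motifs and sequences were not analysed here. Alternatives covered the limits, the replicate block, each array left out, weights for arrays, the scaling, the pseudocount, the filter and the variance model.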

Additional observations from a re-analysis of the deposited data

How the results depend on the processing

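The median log2 difference of the members was 0.81, ran from 0.60 (pseudocount of 64) to 0.93 (pseudocount of 1) over the other settings, and its direction is fixed by the choice of members. The count that met the limits was 61, and 100 to 165 when 1 array was left out, where fewer values must separate; it was 21 with a lowest mean of 200, 154 with a fold of 1.5 and 21 with a fold of 2. Of the 61 themselves, 40 met the limits with a ratio of medians and 36 to 57 without 1 array. The sign of the members' differences is likewise fixed by their choice; of 461 refitted differences of named members 15 moved by more than the spread between replicates, all of these with another pseudocount.

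With limma 0 probe sets were called higher in pif1-2, and 0 or 1 without 1 array, the 1 being MCCB without wild-type replicate 1. The calls lower in pif1-2 were 2, and 0 to 6 without 1 array; they were 1 with median centring, quantile normalization, no filter or eBayes without trend, and 8 with array weights. With the replicate number as a block 11 were called higher and 34 lower (5 of the 11 were members, which these same values had chosen). The numbers share no stated origin, and deviations of same-numbered arrays correlated at 0.25, 0.099 and 0.088 over 17695 probe sets, so they are not taken to pair the samples; every array correlated best with its own number, a hint from the data and not from the design. The causes of these changes were not tested. Signals near 100 limit the precision of most members.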
